A study of Mus musculus with 3 samples.

Results

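Mouse genes that carry small nucleolar RNAs in their introns and encode no known protein were examined, namely Gas5, Zfas1, Snhg1, Snhg3, Snhg5, Snhg6, Snhg8, Snhg12, Snhg15 and Snhg18. They were taken by gene symbol, and all 10 were found among the 55536 annotated genes. The cells were bone-marrow-derived macrophages of the mouse strain C57BL/6J. Lipid A, the endotoxin moiety that activates Toll-like receptor 4, was given at 100 ng/ml for 12 h, washed out for 12 h, and given a second time at 100 ng/ml for 10 min. Cytosolic RNA without ribosomal RNA was sequenced in 3 libraries, replicates 1, 2 and 3 of this one condition. With no untreated library among them, the values are levels and not responses. The libraries carry one donor identifier, and whether they came from separate animals is not stated, so p-values measure only the spread between these libraries, which may be technical.

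Small nucleolar RNAs, or snoRNAs, guide the chemical modification and processing of ribosomal RNA in the nucleolus. Box C/D snoRNAs direct methylation of ribose and box H/ACA snoRNAs direct pseudouridylation. In mammals most of them are cut out of spliced introns of a host gene, and the spliced exons leave as a separate RNA. Many host RNAs, of which Gas5 is the textbook case, begin with a pyrimidine tract like that of ribosomal protein mRNAs, reach cytosolic ribosomes and are degraded by nonsense-mediated decay.

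The annotation (GENCODE M21, mm10) placed 34 snoRNA entries at 32 separate loci inside the 10 genes on the same strand. Gas5 held 9 loci, Snhg1 8, Snhg12 4, Zfas1 3, and Snhg3 and Snhg5 2 each. Snhg6, Snhg8, Snhg15 and Snhg18 held 1 each. All 32 loci lay in an intron of the host's leading transcript, which is the transcript with the highest mean share of the gene's TPM. Box C/D snoRNAs are defined by a C box near the 5′ end and a D box near the 3′ end. With TGATGA in the first 26 bases and CTGA in the last 16, read on the snoRNA's own strand, 21 of the 32 loci had both boxes, against 20.4% of all 1507 annotated snoRNA transcripts. ACA within the last 8 bases was found at 8 of the 32, against 46.8% of all. A match describes these letters and does not show binding by a protein.

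The following 6 snoRNAs are shown because the results on intron-derived reads turn on them or on their hosts: the Snhg3 pair and Snord22 had counts of their own, and Snord47, Snord12 and Snord50a stand for Gas5, Zfas1 and Snhg5. Capitals mark TGATGA and CTGA in the C/D snoRNAs, CTGA alone in Snord22, where TGATGA was not found in the first 26 bases, and ACA in the Snora73 pair.
Snora73a, - strand of chr4:132352775-132352979: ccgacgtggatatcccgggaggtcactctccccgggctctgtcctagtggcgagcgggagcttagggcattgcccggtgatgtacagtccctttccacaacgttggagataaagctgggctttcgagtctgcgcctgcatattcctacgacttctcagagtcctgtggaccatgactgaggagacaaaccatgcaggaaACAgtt
Snora73b, - strand of chr4:132352322-132352526: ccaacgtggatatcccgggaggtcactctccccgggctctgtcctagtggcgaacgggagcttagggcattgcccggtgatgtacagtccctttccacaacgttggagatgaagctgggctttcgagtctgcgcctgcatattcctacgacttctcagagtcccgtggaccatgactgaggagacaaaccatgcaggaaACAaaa
Snord22, + strand of chr19:8725866-8725991: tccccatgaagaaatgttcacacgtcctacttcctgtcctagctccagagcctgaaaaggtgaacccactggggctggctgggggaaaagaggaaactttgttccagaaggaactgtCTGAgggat
Snord47, + strand of chr1:161038082-161038158: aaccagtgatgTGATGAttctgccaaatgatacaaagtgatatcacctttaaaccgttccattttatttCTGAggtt
Snord12, + strand of chr2:167065276-167065365: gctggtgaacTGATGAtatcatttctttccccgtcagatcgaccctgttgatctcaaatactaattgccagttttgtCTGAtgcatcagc
Snord50a, - strand of chr9:88521529-88521600: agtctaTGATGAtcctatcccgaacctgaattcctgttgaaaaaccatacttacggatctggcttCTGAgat
The 2 Snora73 copies are each 205 bases long and differ at 7 positions, an identity of 96.6%, so the division of reads between them is uncertain.

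The distance from a snoRNA to the exon that follows it was short and similar in most hosts. For the 21 C/D loci the median distance from the snoRNA's 3′ end to the next exon of the leading transcript was 72.0 bases, with quartiles of 69.0 and 80.0. For 71 other C/D snoRNAs, chosen by the same letters, in introns of the leading transcripts of 46 other tested genes, the median was 98.0 bases, with quartiles of 79.5 and 330.0. These are positions in the annotation and carry no test. Both Snord50a and Snord50b lay 80 bases before the next Snhg5 exon, and the Zfas1 snoRNAs lay 68 to 72 bases before theirs. The exceptions among the C/D loci included a Gas5 locus at 313 bases, Snord80, and a Gas5 locus at 278 bases, Gm26224. The H/ACA pair in Snhg3 lay 76 and 78 bases from the next exon, and Snora9 in Snhg15 lay 1595 bases from it.

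**Figure D1:**
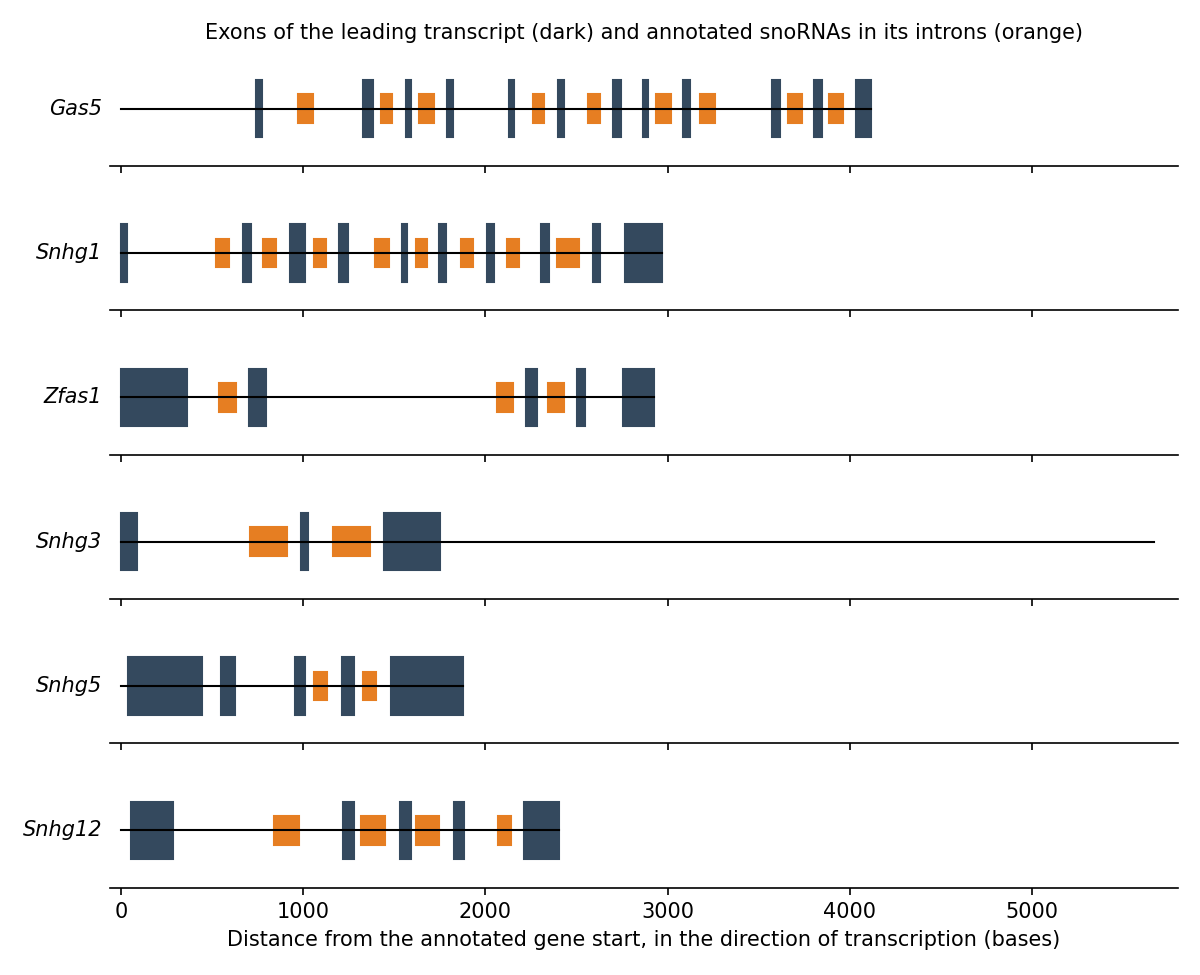
Exons of the leading transcript (dark boxes) and annotated snoRNAs (orange boxes) of 6 host genes, plotted by distance in bases from the annotated gene start in the direction of transcription. In Gas5 and Snhg1 the introns hold 9 and 8 snoRNAs, and most snoRNAs sit close to the exon that follows.

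Promoter windows were available from RefSeq (GRCm38.p6) for 9 of the 10 genes, in 10 windows of 250 bases before to 50 after the start, since Gas5 has 2. Stretches of 90 bases from 4 genes are shown because they hold a pyrimidine run near the start, in Snhg8 and Snhg5 together with a TATA box. Capitals mark TATAAA and the first run made of C followed by at least 4 letters that are each C or T.
Gas5, + strand of chr1:161035116-161035205: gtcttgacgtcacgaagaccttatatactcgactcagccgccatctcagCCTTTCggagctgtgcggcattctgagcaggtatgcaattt
Snhg12, + strand of chr4:132308628-132308717: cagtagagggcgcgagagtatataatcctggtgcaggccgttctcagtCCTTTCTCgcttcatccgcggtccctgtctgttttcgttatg
Snhg8, - strand of chr3:123508297-123508386: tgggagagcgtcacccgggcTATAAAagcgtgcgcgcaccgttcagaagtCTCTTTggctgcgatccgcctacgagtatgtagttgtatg
Snhg5, - strand of chr9:88522858-88522947: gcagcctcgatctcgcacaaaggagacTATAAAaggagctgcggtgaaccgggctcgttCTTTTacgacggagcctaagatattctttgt
The run started at the RefSeq start base in Snhg8, 1 base before it in Gas5 and 2 bases before it in Snhg12, and 9 bases after it in Snhg5. Within 20 bases of the start on the gene's strand, such a run occurred in 6 of the 10 windows, against 48.2% of all 32851 windows. It was also found in Snhg3, 2 bases after the start, and in Snhg18, 14 bases before it. Zfas1, Snhg1, Snhg15 and the other Gas5 window had none. A match describes these letters and does not show that the RNA begins with a pyrimidine tract. TATAAA began 30 bases before the start of Snhg8 and 23 before that of Snhg5. In the stretch from 50 to 10 bases before the start it was found in 2 of the 10 windows, against 2.52% of all. Over the whole window and both strands TATAAA was found in 4 of 10, against 13.6% of all.

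Of the 10 hosts, 9 were present at 1 TPM or more in every library, and Zfas1 and Gas5 stood far above the rest. In bulk RNA fewer cells with an RNA and less of it per cell cannot be told apart. TPM is a transcript level corrected for length and scaled to a fixed total per library. It is given as mean ± SD with n = 3, and the values of single libraries are in the order of replicates 1, 2 and 3. Zfas1 (ENSMUSG00000074578.13, chr2:167062934-167065862, + strand), which starts next to Znfx1 on the other strand, had 69.5, 46.9 and 36.9 TPM, or 51.1 ± 16.7. Gas5 (ENSMUSG00000053332.13, chr1:161034422-161038539, + strand), named for its rise in growth-arrested cells, had 57.4, 46.8 and 37.5 TPM, or 47.2 ± 9.92. Both were highest in replicate 1 and lowest in replicate 3, and the range of Gas5 lay inside that of Zfas1. They ranked 10 and 12 by mean TPM among 13374 annotated long noncoding genes, of which 4760 had any count.

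Snhg6, the host of Snord87, followed at 26.3, 25.1 and 20.9 TPM, or 24.1 ± 2.85. Its CV was 11.8%. These 3 genes were the only members at or above 10 TPM in every library, a level reached by 17.7% of all 22187 genes with any count. At thresholds of 5 and 1 TPM the number of members was 5 and 9.

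The means of 6 hosts lay between 2.68 and 9.36 TPM. Snhg8, the host of Snora24, had 11.8, 7.81 and 8.46 TPM, or 9.36 ± 2.14. Snhg12, which carries Snora16a, Snora44, Snora61 and Snord99, had 7.26, 11.1 and 6.87 TPM, or 8.41 ± 2.34. By these TPM values replicate 2 was the high library for Snhg12, whereas replicate 1 was the high one for Snhg8. Snhg1, long known as the U22 host gene, had 7.46, 5.14 and 4.69 TPM, or 5.76 ± 1.49. Snhg3, the host of the Snora73 (U17) pair, had 6.70, 4.95 and 4.37 TPM, or 5.34 ± 1.21. Both had the same library order as Gas5 and Zfas1. Snhg15, the host of Snora9, had 4.01, 4.78 and 4.07 TPM, or 4.29 ± 0.43, the smallest CV of the 9 at 9.99%. Snhg5, the host of the Snord50 pair, had 3.73, 2.37 and 1.95 TPM, or 2.68 ± 0.93, and its CV of 34.7% was the largest of the 9.

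Snhg18, the host of Snord123, had 0, 1 and 0 counts. The count of 0 in replicates 1 and 3 allows up to 0.052 and 0.023 TPM, the level 3 counts would make there, and covers counting error only. Sema5a, whose start lies 148 bases from that of Snhg18 on the other strand, had 1, 3 and 0 counts.

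Neighbours in the order of levels were compared within each library as log2 ratios of TPM + 0.1. Of the 9 neighbouring pairs, 6 kept one order in all 3 libraries. The order was set by the means of these same libraries, so this count is a description. Gas5 exceeded Snhg6 by a log2 ratio of 0.95 ± 0.15, and Snhg6 exceeded Snhg8 by 1.37 ± 0.27, both without overlap of their ranges. Zfas1 and Gas5 did not differ beyond their spread, with a log2 ratio of 0.08 ± 0.17. Neither did Snhg8 and Snhg12 at 0.16 ± 0.61, Snhg12 and Snhg1 at 0.53 ± 0.57, or Snhg3 and Snhg15 at 0.29 ± 0.38. Snhg1 exceeded Snhg3 by only 0.10 ± 0.05, in 3 of 3 libraries but with overlapping ranges. Snhg15 exceeded Snhg5 by 0.70 ± 0.52 in 3 of 3.

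**Figure D2:**
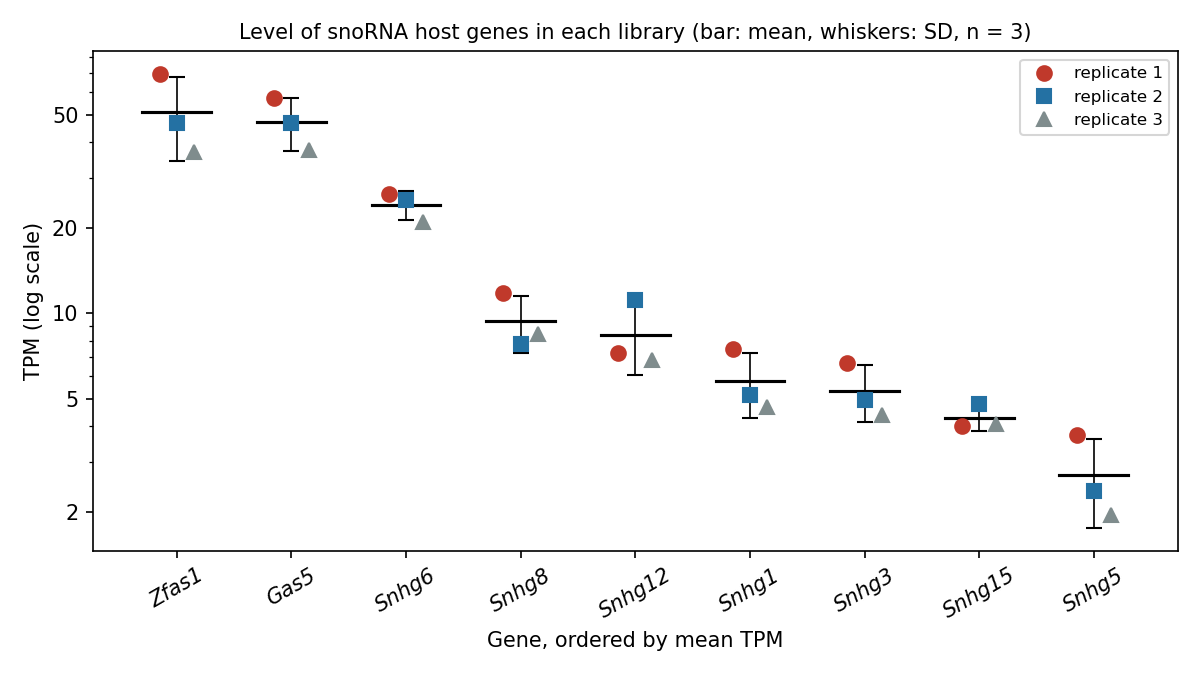
TPM of the 9 hosts with counts in every library (y axis, log scale), ordered by mean. Points are single libraries, horizontal bars the mean and whiskers the SD (n = 3); Zfas1 and Gas5 lie near 50 TPM, Snhg6 near 24.1, and the other 6 hosts lie mostly below 10.

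TPM depends on what else a library contains. Nuclear-encoded protein-coding genes held 34.3%, 27.8% and 27.8% of TPM in replicates 1, 2 and 3. Scaled so that those genes sum to 1000000 TPM, Gas5 had 167, 169 and 135, so that replicate 1 was no longer the highest. Zfas1 kept its order at 202, 169 and 133 on this scale. By the gene TPM as deposited 7 of the 10 members were highest in replicate 1, and by the scaled value 5 were. The remaining 5, Gas5, Snhg6, Snhg12, Snhg15 and Snhg18, were then highest in replicate 2, for Snhg18 on a single count. TPM quantified directly from the reads put replicate 1 highest also for Snhg6, Snhg12 and Snhg15. Snhg6 had 17.8, 9.15 and 5.61, Snhg12 4.87, 3.94 and 1.95, and Snhg15 3.77, 1.88 and 1.26, or 2.30 ± 1.31. By the gene TPM as deposited, Snhg6 was highest in replicate 1 as well. The high library of Snhg12 and Snhg15, and the CV of each of these hosts, therefore depended on the quantification. On log2 counts of the direct quantification, scaled to library size, replicate 1 minus the mean of the others was -0.11 for Snhg6, -0.34 for Snhg12 and -0.13 for Snhg15.

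Each host used 1 or 2 main spliced forms. In Zfas1 a 5-exon transcript of 738 bases, Zfas1-205, held 89.5%, 97.8% and 96.1% of the gene's TPM. Gas5-224, with 12 exons that together make only 502 bases of a 4118-base gene, held 68.6%, 72.5% and 75.3%, and Gas5-210 held 18.2%, 24.1% and 20.7%. A single form led with a mean of at least 80% in Snhg1 (Snhg1-211), Snhg3 (Snhg3-204), Snhg6 (Snhg6-203), Snhg8 (Snhg8-201) and Snhg12 (Snhg12-206). For Snhg1 this did not hold in the direct quantification, as given below. In Snhg15 the share of Snhg15-204 was 50.4%, 51.7% and 38.7% and that of Snhg15-201 was 40.2%, 45.2% and 55.1%, with means of 46.9% and 46.8%.

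By these shares the 2 main forms of Snhg15 and of Snhg5 changed places between libraries. In Snhg5, Snhg5-201 held 25.6%, 55.5% and 71.7%, and Snhg5-202 held 52.1%, 42.9% and 28.3%. Snhg15-204 led in replicates 1 and 2, whereas Snhg5-202 led in replicate 1. The expected counts behind the Snhg5 shares were small, 33.7, 96.3 and 110 for Snhg5-201 and 48.5, 53.3 and 30.7 for Snhg5-202. Those behind the Snhg15 shares were 32.8, 85.9 and 56.7 for Snhg15-204 and 13.0, 39.1 and 39.5 for Snhg15-201. The directly quantified transcript tables gave the same leading form in 7 of the 9 hosts. For Snhg1 they put Snhg1-207 first, with a mean of 49.4%, and for Snhg15 Snhg15-201, with 51.7%. Snhg1-207 held 69.3%, 47.6% and 31.2% there, against 19.0%, 47.8% and 63.7% for Snhg1-211, so these forms changed places. Snhg15-201 led there in every library, at 48.8%, 50.1% and 56.1%, against 35.3%, 46.4% and 37.6% for Snhg15-204. The exchanges in Snhg15 and Snhg1 were thus each seen in only 1 quantification, whereas that in Snhg5 was seen in both.

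Between 9.90% and 45.0% of the expected counts of 7 hosts were assigned, in replicate 1, to annotated transcripts whose exons enclose a whole snoRNA. Such a transcript keeps the part of the intron that holds the snoRNA. Whether the reads assigned to it came from unspliced host RNA was not tested. Pooled over the 7 hosts, such transcripts took 717 counts or 21.9% in replicate 1 (95% Wilson interval 20.5% to 23.3%). They took 122 or 2.63% in replicate 2 (2.2% to 3.13%) and 179 or 4.60% in replicate 3 (3.99% to 5.31%). These intervals cover counting error only. Replicate 1 was the highest in 7 of 7. Snhg1 had 45.0%, 6.32% and 12.8%, Snhg12 30.4%, 3.64% and 2.72%, and Gas5 28.2%, 2.67% and 4.53%. Snhg8 had 18.2%, 1.34% and 3.74%, and Zfas1 had 16.3%, 2.25% and 4.36%. Snhg15 differed least, with 9.90%, 3.27% and 6.73% on 5.25, 4.28 and 7.20 counts. By TPM the pooled share was 10.0%, 1.35% and 2.36%, lower because these transcripts are long.

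The annotated class of retained-intron transcripts, which 5 hosts have, largely consists of the same transcripts, so its shares are not separate support. In Snhg1 and Snhg8 both sets held the same expected counts. In Gas5 the retained-intron set held 283.5 in replicate 1 and the snoRNA-containing set 258.8. The retained-intron share of expected counts was highest in replicate 1 in 5 of 5 hosts, and pooled it was 23.4%, 3.21% and 5.42%. In Gas5, Gas5-218, which keeps 6 snoRNAs in its exons, had 113, 13.5 and 16.5 expected counts. Zfas1-204, with 2 snoRNAs in its exons, had 203, 25.8 and 38.8. Snhg1-215, with 7 of the 8 snoRNAs, had 61.2, 11.1 and 3.85.

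This order was common to the libraries as a whole. Among 6198 genes that averaged 100 or more counts and have a retained-intron transcript, the share was highest in replicate 1 in 82.9% by expected counts and 81.3% by TPM. Their median share of counts was 2.87%, 0.37% and 0.37% in replicates 1, 2 and 3. The 5 of 5 hosts are close to that background. RNAs held in the nucleus were also highest in replicate 1: all 6 tested nuclear-retained long noncoding RNAs were. Of the tested long noncoding genes 69.9% were, and of all genes tested 40.3%. Malat1 had 1333, 118 and 152 TPM. Neat1 had 66.0, 13.9 and 17.6 TPM, Xist 32.6, 0.42 and 0.35, and Firre 3.29, 0.55 and 0.54, whereas Meg3 and Miat were listed at 0. Whether nuclear RNA in replicate 1 contributed to the counts of these host transcripts was not tested.

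**Figure D3:**
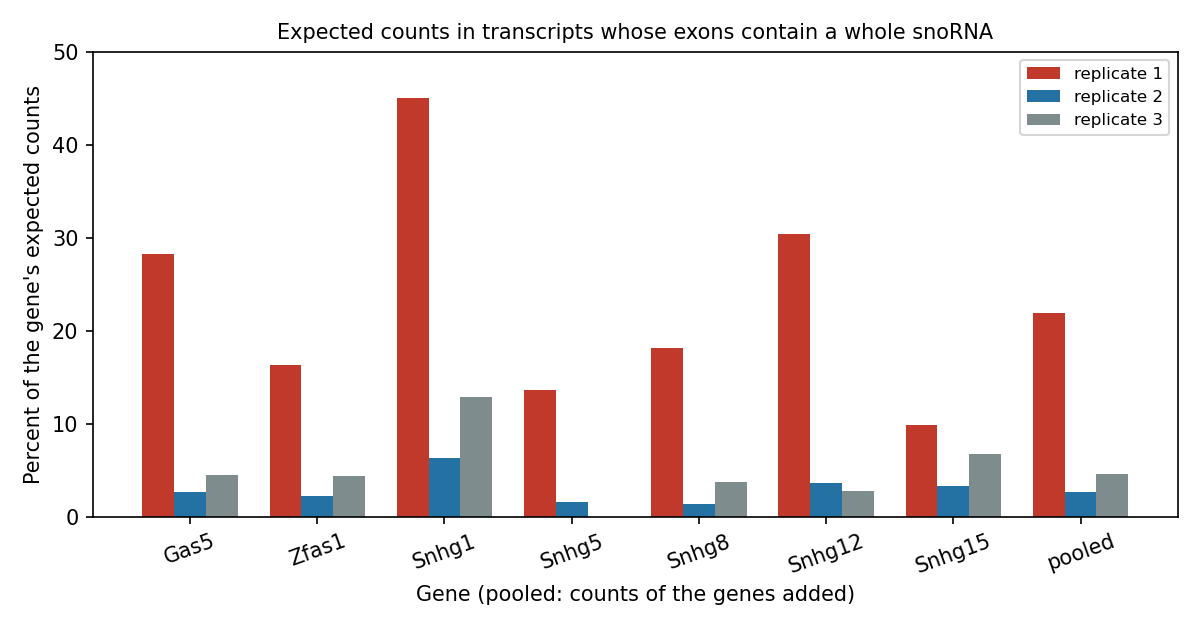
Percent of a gene's expected counts (y axis) assigned to transcripts whose exons contain a whole snoRNA, in 7 hosts and pooled, with one bar per library. The replicate 1 bar is the tallest in all 7 hosts, from 9.90% in Snhg15 to 45.0% in Snhg1.

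Libraries were compared on log2 CPM, counts scaled to library size with TMM factors. Of the 9 hosts with enough counts, 7 varied between libraries beyond counting error (chi-square test of equal rates, Benjamini-Hochberg adjusted p of 0.05 or less over 12515 genes). Of all genes tested 71.4% did so, and the members' share is near that background. Zfas1 had 1725, 2277 and 1904 expected counts, adjusted p = 1.5e-53. Gas5 had 917, 1316 and 1090, adjusted p = 2.9e-22. Snhg12 had 152, 406 and 262, adjusted p = 5.9e-11, and Snhg1 had 196, 194 and 196, adjusted p = 2.5e-10. The equal counts of Snhg1 came from libraries of 31968675, 53094481 and 57070432 expected counts over genes, so its rate was highest in replicate 1. Snhg6 passed at adjusted p = 8.8e-05, Snhg5 at 0.026 and Snhg15 at 0.044. Snhg8 missed the threshold at adjusted p = 0.052 and Snhg3 at 0.27. Without replicate 1, 4 of 9 hosts passed, where 40.4% of all genes did. Without replicate 2, 4 of 9 passed, where 58.2% of all genes did, and without replicate 3, 7 of 9, where 61.5% did. Snhg12 and Snhg6 lost their calls without replicate 2, at adjusted p = 0.60 and 0.26, and Snhg1 lost its call without replicate 1, at 0.66. Snhg5 lost its call without replicate 1 or 3, at 0.33 and 0.13, and Snhg15 without replicate 1 or 2, at 0.078 and 0.66. Snhg8 gained one without replicate 3, at 0.035. Calls near the threshold also depended on the scaling. With DESeq2 size factors Snhg15 missed it at 0.052 and Snhg8 passed at 0.048, and Snhg5 missed it at 0.055 with plain library totals and at 0.12 without the filter. Directly quantified counts gave 0.13 for Snhg15.

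The median biological coefficient of variation of the 9 hosts, edgeR's estimate of spread beyond counting, was 0.28, against 0.17 over all genes tested and 0.36 over 818 tested long noncoding genes. This estimate is drawn towards a trend with abundance. Snhg3, with a mean of 84.0 counts and no call, had 0.32, and Gas5, with a mean of 1108 counts and a call, had 0.19. Genes of like count were not compared, so the values do not show that hosts vary more. The median was also taken with a library left out. Without replicate 1 the median was 0.15 for the hosts and 0.10 for all genes.

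The highest log2 CPM was that of replicate 1 in 6 of the 9 hosts, against 40.3% of all genes tested and 69.9% of the tested long noncoding genes. The difference of replicate 1 from the mean of replicates 2 and 3 was 0.84 for Snhg1, 0.57 for Zfas1, 0.45 for Gas5, 0.41 for Snhg5 and 0.38 for Snhg8. It was 0.22 for Snhg3, -0.05 for Snhg6, -0.26 for Snhg12 and -0.31 for Snhg15. The median was 0.38, against -0.01 for all genes and 0.57 for tested long noncoding genes.

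The difference was also computed with retained-intron transcripts set aside. Their share was highest in replicate 1 in every host that has them. A fall of the difference in those hosts was therefore fixed in advance, and only its size is informative. With those transcripts removed from every gene, a calculation added after the data were seen, the members' median was 0.05 in place of 0.38. The Gas5 difference became 0.04, that of Snhg5 0.05 and that of Snhg1 0.17. Zfas1 kept 0.38, and Snhg3, which has no transcript of that class, had 0.26. Snhg6, Snhg12 and Snhg15 have none either, so for these hosts only the scaling and the adjustment over genes differed. The snoRNA-containing transcripts of Snhg12 and Snhg15 are of other classes and were not removed. On these counts 4 of 9 hosts varied beyond counting error, Gas5, Zfas1, Snhg6 and Snhg12, where 70.0% of all genes did. Snhg1 no longer did, at adjusted p = 0.30 (chi-square test on edgeR's scaling), nor did Snhg5 at 0.54. Snhg15, whose own counts were unchanged, moved from 0.044 to 0.056 in the same test.

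**Figure D4:**
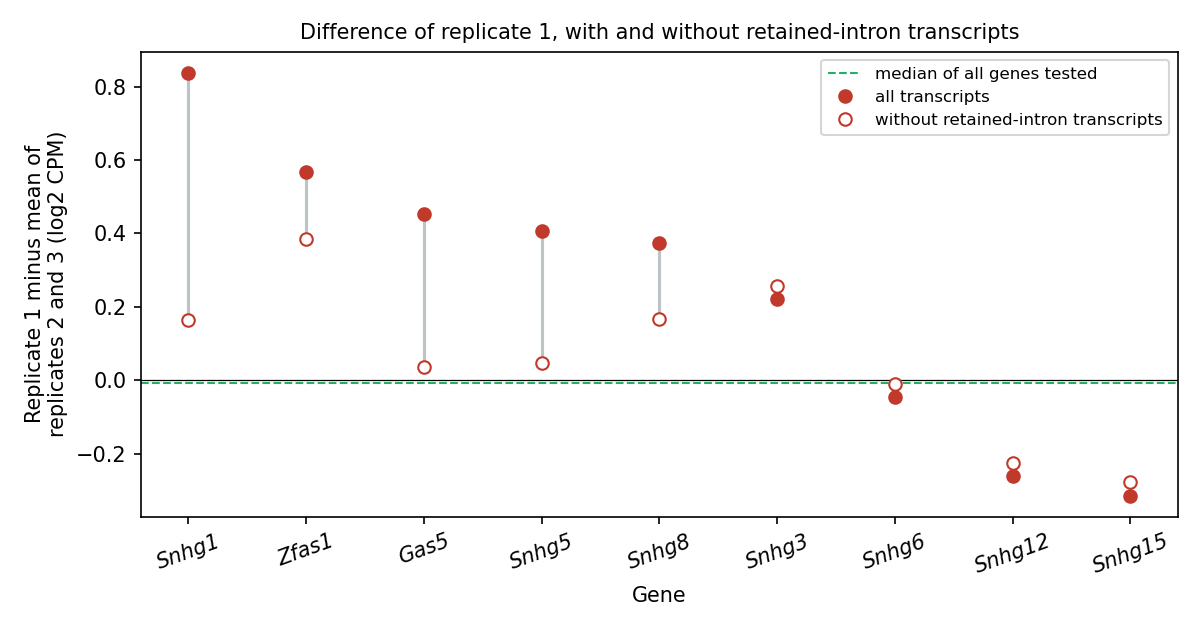
Difference of replicate 1 from the mean of replicates 2 and 3 in log2 CPM (y axis) for 9 hosts, from all transcripts (filled) and without retained-intron transcripts (open), with the median of all genes as a dashed line. Snhg1, Gas5 and Snhg5 move from 0.84, 0.45 and 0.41 to 0.17, 0.04 and 0.05.

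Replicates 2 and 3 also differed. In 8 of the 9 hosts log2 CPM was higher in replicate 2, the exception being Snhg8, and the median difference was 0.36. Over all genes 50.4% were higher in replicate 2 and the median was 0.00. The host difference was 0.73 for Snhg12, 0.40 for Snhg6, 0.39 for Snhg15, 0.38 for Gas5 and 0.36 for Zfas1. In the same 2 libraries 24 of 25 ribosomal protein genes without a listed snoRNA were higher in replicate 2, with a median of 0.20, and so were 23 of 27 protein-coding snoRNA hosts, with a median of 0.21. In replicate 1, by contrast, 24 of the 25 ribosomal protein genes had their lowest value, against 41.6% of all genes tested.

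The snoRNAs themselves were nearly unread. The gene tables gave an effective length of 0 to 25 of the 32 hosted loci in replicates 1 and 2 and to 29 in replicate 3, so most could receive no level whatever their abundance. A listed 0 says nothing of absence there. A mean of at least 1 expected count was reached by 3 loci. Snora73b had 239, 22.8 and 21.7 counts and Snora73a 186, 17.8 and 14.8. Snord22 had 76.0, 10.0 and 20.0 counts, although its effective length, and so its TPM, was 0 in all 3 libraries. All 3 were highest in replicate 1, by 18.5-fold, 19.5-fold and 8.82-fold in counts per library total over the mean of the other libraries. Their hosts Snhg3 and Snhg1 were higher by 1.12-fold and 1.73-fold on the same scale. All 1507 snoRNA genes together had 104.1, 17.98 and 20.95 CPM, so replicate 1 was high for snoRNA entries in general. Direct quantification added Snord47 in Gas5, which had 3.01, 0 and 0 counts. Rcc1 overlaps Snhg3 by 5592 bases on the same strand, and both Snora73 loci lie within that overlap. Snhg3 RNA is therefore not the only possible unspliced source of the Snora73 reads. Whether the snoRNA reads came from mature snoRNAs or from unspliced RNA of a host or of Rcc1 was not tested.

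**Figure D5:**
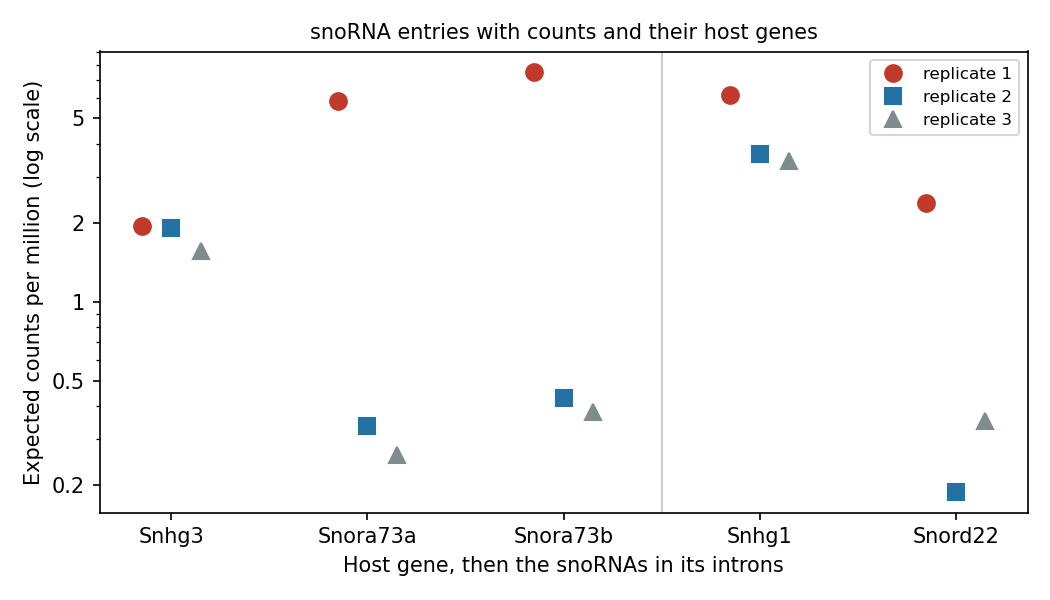
Expected counts as CPM (y axis, log scale) of Snhg3 and Snhg1 and of the snoRNAs in their introns that had counts, with one point per library. Snora73a, Snora73b and Snord22 were 19.5, 18.5 and 8.82 times higher in replicate 1 than in the mean of the others, while Snhg3 differed by 1.12 times.

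The mRNAs of proteins that bind the excised snoRNAs were present at modest levels. Those of all 4 core proteins of the box C/D particle were found: Snu13 at 15.2 ± 1.42 TPM, Nop56 at 12.7 ± 0.27, the methyltransferase Fbl at 10.9 ± 0.92 and Nop58 at 9.32 ± 0.26. Of the box H/ACA particle, Nhp2 had 12.3 ± 1.41 TPM, Nop10 5.06 ± 0.82, Gar1 4.74 ± 1.09 and the pseudouridine synthase Dkc1 1.72 ± 0.27. All 8 were lowest in replicate 1 on the log2 CPM scale, as were 41.6% of all genes tested, with medians of -0.25 and -0.48 for the 2 particles. Of the 8, 7 varied beyond counting error, against 71.4% of all genes tested, Dkc1 being the exception. The 10 assembly factors had a median of 3.22 TPM, and 9 of them were lowest in replicate 1. Pih1d1 had 6.81 ± 0.27, Ruvbl2 4.97 ± 0.23, Nolc1 4.70 ± 0.15 and Ruvbl1 4.60 ± 0.09 TPM, and the lowest were Nufip1 at 2.31 ± 0.20 and Shq1 at 0.83 ± 0.13.

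Factors of nonsense-mediated decay, the pathway that degrades translated host RNAs, had a median of 7.44 TPM over 10 genes. The kinase Smg1 had 14.96 ± 5.60 TPM, the helicase Upf1 12.3 ± 1.54 and Smg9 11.5 ± 1.98, and the lowest were Smg6 at 2.72 ± 0.27 and Upf3b at 2.42 ± 0.40. Of the 10, 8 varied beyond counting error, against 71.4% of all genes tested, and 6 were highest in replicate 1, against 40.3%. Among 6 regulators of mRNAs with a pyrimidine tract were Pabpc1 at 208 ± 9.77, Cnbp at 40.1 ± 0.78 and Larp1 at 28.2 ± 5.27 TPM. Larp4 had 13.9 ± 1.43, Rptor 7.53 ± 0.82 and Mtor 5.19 ± 0.62 TPM. Beyond counting error 4 of the 6 varied, against the same 71.4%.

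The 27 listed coding snoRNA hosts, many of them ribosomal protein genes, had a higher median level than the noncoding ones. Their median was 157 TPM, against 7.09 over the 10 noncoding hosts. Coding hosts outside the list were not compared. Tpt1 had 644 ± 134 TPM, Hspa8 521 ± 129, Rps12 364 ± 37.7 and Rpl10 361 ± 34.4, and the lowest were Rabggtb at 12.3 ± 0.65 and Cwf19l1 at 2.74 ± 0.85. Their median difference of replicate 1 was -0.25, with 20 of 27 lowest there, and 26 of 27 varied beyond counting error. For all genes tested these shares were 41.6% and 71.4%. Ribosomal protein genes without a listed snoRNA had a median of 175 TPM and a median difference of -0.30, and all 25 varied. Rpl19 had 382 ± 34.0 TPM, Rps9 332 ± 16.1, Rpl26 295 ± 20.2 and Rps15 263 ± 16.2, and the lowest were Rpl22 at 99.3 ± 6.26 and Rpl14 at 81.7 ± 11.6.

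Of 11 other noncoding snoRNA hosts, 8 were found by symbol and 4 had enough counts to be tested. Of these, 3 varied beyond counting error, against 71.4% of all genes tested. Epb41l4aos had 6.45, 10.8 and 6.28 TPM, with replicate 2 high as in Snhg12. Snhg20 had 4.33, 0.73 and 0.57 TPM and Snhg17 1.55, 1.16 and 0.85, both high in replicate 1. Snhg9 had 0, 0 and 2.21 TPM, and the lowest were Dancr at 0.10 ± 0.09 and Snhg11, listed at 0. Epb41l4aos alone of the 8 reached 1 TPM in every library.

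Some members start close to, or overlap, a gene on the other strand, and since the strand setting of the counting is not given, reads of the overlap cannot be divided with certainty. Znfx1, an interferon-inducible helicase whose gene overlaps Zfas1 by 82 bases, had 219, 127 and 142 TPM, or 163 ± 49.6. Zbtb37 overlaps Gas5 by 428 bases and had 1.18 ± 0.55 TPM. Slc3a2, the heavy chain of amino acid transporters, starts 106 bases from Snhg1 and had 151 ± 19.8 TPM, and its difference of replicate 1 was 0.01, against 0.84 for Snhg1. That difference was 0.38 for Znfx1, against 0.57 for Zfas1, and 0.60 for Zbtb37, against 0.45 for Gas5. Gm17300 opposite Snhg3 had 0.24 ± 0.26 TPM, and Mcmdc2 opposite Snhg6 had 0.06 ± 0.09. On the same strand, Rcc1 overlaps Snhg3 by 5592 bases and had 2.62 ± 0.19 TPM, so the Snhg3 level is uncertain.

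The members' median profile over the 3 libraries, as log2 CPM centred on each gene's mean, was 0.25, 0.04 and -0.24. By Euclidean distance to it, the nearest of 10311 other genes averaging 100 or more counts were Atf3, Abhd18, Chil3, Ehbp1 and Gm43305, at distances of 0.03 each. With 3 libraries, 102 genes lay within 0.1, so the order among them is of little weight.

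The cells carried macrophage RNA: all 8 macrophage markers were at 10 TPM or more in every library, led by Lyz2 at 2989 TPM, with summed levels of 4401 to 5256 TPM. The 4 lymphocyte, 4 fibroblast, 3 erythroid and 2 mast cell markers were all under 1 TPM, and 3 of 4 neutrophil markers were too, S100a8 being the exception at a mean of 3.04 TPM. The 4 markers of nuclear RNA summed to 1432 TPM in replicate 1 and to 133 and 170 TPM in replicates 2 and 3. The 10 members together took 113, 100.2 and 77.8 CPM.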

How the data were processed

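RNA of 3 libraries of 1 group was analysed. The authors deposited expected counts and TPM per gene and per transcript, made against mm10 with GENCODE M21 per the notes deposited with the files, and each transcript's share of its gene as a percent. Columns are named as RSEM names them. Further tables that the authors deposited hold estimated counts and TPM of transcripts quantified directly from the reads, under kallisto's column names. The deposited effective lengths are in bases (other columns were not used). The strand setting and the versions of the authors' tools were not stated in the sources used here. Inserts of 250 to 400 bases, per the labels, limit what short RNAs can give.

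Entries that name no gene (spike-ins, tRNAs, phiX) took 0.44%, 0.13% and 0.08% of counts and stayed out of tests. Expected counts were rounded, filtered by expression and scaled by TMM in edgeR 4.0.16 (R 4.3.3). Log2 CPM used a prior count of 2. The chi-square test was tested on simulated data. DESeq2 1.42.0 gave alternative size factors. Alternatives also changed filter, quantification, scale and libraries.

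Members, gene lists and rules were chosen with earlier results of these data known. Named genes are all members, the 4 highest and 2 lowest of each list (all in lists of 6 or fewer), snoRNAs with a mean of at least 1 count, opposite-strand neighbours overlapping or starting within 1000 bases, the 5 nearest profiles, and the leading transcripts with any at 20% or more. Rcc1 and the other transcripts and snoRNAs named were picked after their values were seen. One gene that the rule would name is not reported here.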

Additional observations from a re-analysis of the deposited data

How the results depend on the processing

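The median TPM of the 10 members was 7.09. It was 3.27 in the directly quantified tables and 23.8 when protein-coding genes were scaled to sum to 1000000 TPM, and 6.53 to 7.74 with a library left out. Members at or above 10 TPM numbered 3, and 5 and 9 at thresholds of 5 and 1 TPM, with 2 in the directly quantified tables and 3 in each fit without a replicate. Members varying beyond counting error numbered 7, and 4 without retained-intron transcripts; they numbered 4 to 7 with a library left out and 6 or 7 under the other scalings, filter and quantification. The median coefficient of variation was 0.15 to 0.36 with a library left out. The members' median difference of replicate 1 kept its sign under every alternative run, from 0.048 without retained-intron transcripts to 0.52 on log2(TPM + 0.1), and was 0.26 to 0.35 without replicate 3 or 2. The difference turned positive for Snhg6 without replicate 2 (0.14), on log2(TPM + 1) (0.19) and on log2(TPM + 0.1) (0.20), and for Snhg12 without replicate 2 (0.093), and these were -0.24 and -0.63 without replicate 3; the cause was not tested. The pooled retained-intron share of TPM was 2.49% to 7.24% with a library left out, and the share of snoRNA-containing transcripts 1.85% to 6.19%, or 9.70% by expected counts and 10.4% by directly quantified counts. The retained-intron exclusion, the protein-coding scale and the snoRNA-containing measure were chosen after seeing the data. No paired analysis was possible because the series has a single group. Short snoRNAs lie below what the inserts can show.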
